A study of Mus musculus with 20 samples.

Results

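The endoplasmic reticulum (ER) chaperone and integrated stress response module comprised 33 genes listed by name. All 33 were found among the 46078 genes of the mouse liver read-count table, and all 33 passed the filter on low counts that left 15744 genes for testing. They fell into 5 roles, with 14 chaperones and folding enzymes, 3 genes of ER-associated degradation, 4 stress sensors and their transcription factors, 4 transcription factors of the ATF4 arm and 8 ATF4 targets. The libraries came from 4 groups of 4 mice. The normal group held C57BL/6J wild-type mice on saline. The other groups held db/db mice, a model of type 2 diabetes with a defective leptin receptor gene. They carry the defect in all tissues, not in the liver alone. For 12 weeks the model group was given saline, the PGZ group pioglitazone, an agonist of the nuclear receptor PPARG, at a dose of 20 mg/kg, and the DLE group a leaf extract of a bamboo, Dendrocalamus latiflorus, at a dose of 200 mg/kg. All treated mice were db/db, and no treated wild-type group was analysed here. The sex and age of the mice, the background strain of db/db, and any cage, day or batch are not given in the sources used here, so p-values measure only the spread between these libraries.

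The ER folds secreted and membrane proteins with chaperones such as BiP, the product of Hspa5. Unfolded proteins are sensed by IRE1 (Ern1), which splices Xbp1 mRNA, by ATF6, and by PERK (Eif2ak3), which phosphorylates the translation factor eIF2. ATF6 and spliced XBP1 raise chaperone and degradation genes, whereas eIF2 phosphorylation, which kinases outside the ER can also bring about, favours translation of ATF4. ATF4 raises genes of amino acid synthesis and transport, other transcription factors and feedback regulators of eIF2. Hepatocytes secrete plasma proteins in large amounts and keep these pathways active at rest. ATF6 is processed as a protein and ATF4 is controlled in translation, so mRNA levels of either gene do not report its activity.

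The promoter windows shown here were picked from those that carry elements known from the literature of each arm. Each window holds the 250 bases before the RefSeq transcription start (GRCm38.p6), 5′ to 3′ on the strand of the gene. Capitals mark the ER stress response element ERSE (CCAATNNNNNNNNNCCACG), known to bind ATF6 with NF-Y, in Hspa5, Hsp90b1 and Creld2, ERSE-II (ATTGGNCCACG) and the C/EBP-ATF response element CARE (TGATGNAA), known to bind ATF4, in Herpud1, and CARE in Chac1, Nupr1 and Asns. Matches on the opposite strand appear as the reverse complement. The windows lie at chr2:34771840-34772089 (plus strand), chr10:86705445-86705694 (minus), chr15:88819396-88819645 (plus), chr8:94386179-94386428 (plus), chr2:119350992-119351241 (plus), chr7:126625471-126625720 (minus) and chr6:7693210-7693459 (minus).
Hspa5: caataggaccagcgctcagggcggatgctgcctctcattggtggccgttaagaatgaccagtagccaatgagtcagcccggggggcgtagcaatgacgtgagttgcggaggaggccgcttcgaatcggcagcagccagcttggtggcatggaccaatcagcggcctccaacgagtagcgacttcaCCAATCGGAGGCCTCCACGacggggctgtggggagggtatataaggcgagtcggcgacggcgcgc
Hsp90b1: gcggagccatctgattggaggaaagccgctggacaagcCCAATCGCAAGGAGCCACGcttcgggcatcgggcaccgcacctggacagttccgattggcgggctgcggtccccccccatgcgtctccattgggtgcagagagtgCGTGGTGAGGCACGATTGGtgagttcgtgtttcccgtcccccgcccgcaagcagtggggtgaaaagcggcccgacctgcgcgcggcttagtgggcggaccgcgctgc
Creld2: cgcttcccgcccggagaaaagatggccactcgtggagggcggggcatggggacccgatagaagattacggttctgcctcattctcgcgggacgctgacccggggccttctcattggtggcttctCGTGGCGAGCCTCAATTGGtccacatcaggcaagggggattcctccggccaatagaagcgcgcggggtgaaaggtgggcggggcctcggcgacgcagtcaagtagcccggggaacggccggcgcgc
Herpud1: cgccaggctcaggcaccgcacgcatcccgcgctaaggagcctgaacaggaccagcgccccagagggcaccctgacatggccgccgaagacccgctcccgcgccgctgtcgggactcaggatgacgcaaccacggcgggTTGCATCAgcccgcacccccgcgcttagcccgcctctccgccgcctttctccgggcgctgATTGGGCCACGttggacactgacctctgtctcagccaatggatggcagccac
Chac1: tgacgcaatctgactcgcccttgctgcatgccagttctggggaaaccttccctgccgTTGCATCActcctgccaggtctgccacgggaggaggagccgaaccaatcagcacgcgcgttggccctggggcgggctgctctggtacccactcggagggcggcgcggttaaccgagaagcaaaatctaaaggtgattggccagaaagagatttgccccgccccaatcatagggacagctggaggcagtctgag
Nupr1: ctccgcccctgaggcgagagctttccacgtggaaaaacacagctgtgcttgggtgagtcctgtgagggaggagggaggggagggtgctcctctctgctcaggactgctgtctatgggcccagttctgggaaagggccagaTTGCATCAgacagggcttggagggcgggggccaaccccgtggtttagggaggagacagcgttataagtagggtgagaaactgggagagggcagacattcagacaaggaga
Asns: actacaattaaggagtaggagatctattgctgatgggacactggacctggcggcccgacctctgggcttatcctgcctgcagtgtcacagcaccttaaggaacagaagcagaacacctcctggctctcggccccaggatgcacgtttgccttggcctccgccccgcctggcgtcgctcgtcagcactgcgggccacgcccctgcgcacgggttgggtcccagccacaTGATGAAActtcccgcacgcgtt

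RefSeq windows were matched for 30 of the 33 genes. Both strands were searched, and no motif searched overlapped another in these windows. ERSE stood in 7 of the 30, namely those of Hspa5, Hsp90b1 (with 2 copies), Calr, Canx, Pdia6, Dnajc3 and Creld2, all of them chaperone or folding genes, against 37 of 32851 windows of all genes (0.113%). ERSE-II stood in the Herpud1 window alone among the 30, against 0.0304% of all windows. CARE stood in the windows of Asns, Atf3, Chac1, Nupr1 and Herpud1, against 3.45% of all windows. The cyclic AMP response element CRE (TGACGTCA) was found in the window of Ppp1r15a and in 1.55% of all windows. The unfolded protein response element UPRE (TGACGTGG) was found in 0 of the 30 and in 0.563% of all windows. Of the members called in model versus normal below, Nupr1 had a match, and the windows of Dnajb9, Atf5, Psat1 and Ern1 had none. The elements searched are known from the literature of these arms, so their presence in member windows was likely in advance and is no test. Members were counted by gene, with a match in any window of the gene, and all genes by single window. A match is a description of letters, not of a bound site.

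Total counts ran from 16922833 to 25119799 per library, and levels are given as CPM, the count of a gene relative to the TMM-scaled total of its library. Hepatocyte markers summed to between 32970 and 106000 CPM in every library, so the labelled liver tissue carried its defining markers. Across genes, log2 CPM correlated between libraries of a group at r of 0.877 to 0.975 in the model group and 0.946 to 0.987 in the others. Which pair of libraries gave the lowest r is not given. The library model_327 stood apart in its acute-phase level. In model_327 the summed level of 18 acute-phase genes was 259200 CPM, against 11950 to 122200 in the other 15 libraries, with Saa1, the acute-phase serum amyloid A, at 27783 CPM and Lcn2 at 11948 CPM. The hepatocyte sum was lowest there, at 32970 CPM, and the sum of 8 B and plasma cell markers was also the lowest of all libraries, at 1.85 CPM against 3.42 to 29.6. Of 8 pancreatic acinar markers 7 were at or under 0.29 CPM in all 16 libraries, and Cela1 in model_327 was 3.65 CPM. The cholangiocyte sum in model_327 was 951 CPM, of which Spp1 gave 939 and the defining marker Krt19 gave 0.875, and the neutrophil sum was 36.3 CPM against 4.11 to 7.14 in normal. The endothelial sum, 62.7 CPM, was the lowest of all libraries. The Kupffer cell sum of 184 CPM lay within the range of the normal group (79.5 to 234), whereas the mean log2 difference over its 9 markers, 0.94, lay above that range (-0.75 to 0.36). A second library, model_387, had an acute-phase sum of 122200 CPM, a neutrophil sum of 2279 CPM against 3.89 to 417.5 elsewhere, and a Kupffer cell sum of 1761 CPM against 79.5 to 575. The part of these cells and of the acute-phase state in the results below was not tested. Fewer cells of a type and less RNA per cell cannot be told apart in whole liver. Main results that rest on model_327 are also given without it, for the remaining chaperones as a median.

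Per kilobase of exon, the module spanned a wide range in the normal liver. Calr, a calcium-binding chaperone of glycoproteins, was highest at 256 CPM per kb, followed by the disulfide isomerase Pdia3 at 105, Herpud1 at 99.7 and Xbp1 at 89.8. Hsp90b1, Atf5, Atf4 and Hspa5 lay between 55 and 68.1 CPM per kb. The sensors were low, at 7.93 CPM per kb for Ern1, 2.8 for Atf6 and 1.79 for Eif2ak3. The serine synthesis genes Phgdh and Psat1 were lowest, at 0.0403 and 0.0541 CPM per kb, next to Asns at 0.126.

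**Figure D1:**
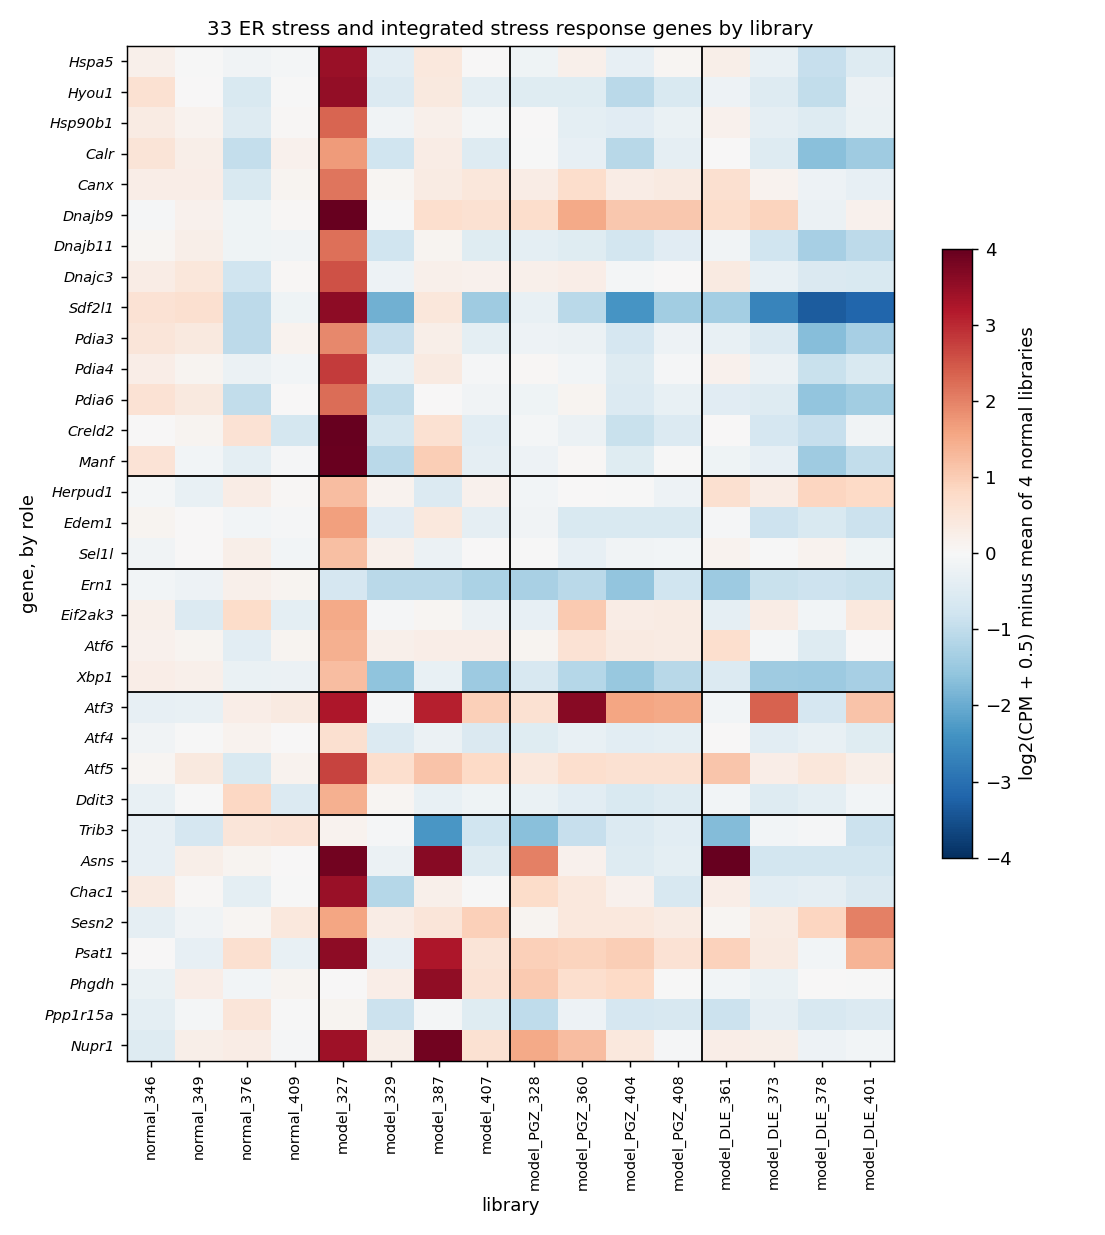
Heat map of 33 genes (rows, grouped by role with black lines) in 16 libraries (columns, grouped by treatment). Colour gives log2(CPM + 0.5) minus the mean of the 4 normal libraries, and differences beyond 4 take the end colour. Every chaperone is highest in model_327, ATF4 targets such as Asns, Psat1 and Nupr1 are red in model_327 and model_387, and Ern1 is blue in all 12 db/db libraries.

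In db/db model liver against normal liver, 4 of the 33 genes were higher and 1 was lower at an adjusted p under 0.05. The higher genes were the co-chaperone Dnajb9, the transcription factor Atf5 and the ATF4 targets Psat1 and Nupr1, and the lower gene was the sensor Ern1. Over all genes tested, 6.18% were higher and 2.9% were lower. At an unadjusted p under 0.05 stood 18 of the 33, against 28% of all genes, and the median log2 fold change was 0.97, against 0.07 over all genes tested. Atf6 and Atf5 were above the normal range in all 4 model libraries and Ern1 was below it, where 6.57% of all genes were higher and 7.13% lower without overlap between groups. Without model_327, 2 of the 33 were higher, Nupr1 and Phgdh, the latter with model reads almost wholly from model_387, and 1 was lower, Ern1, against 5.24% and 2.05% of 16001 genes, and the median was -0.05. The number of higher members was 0 without normal_346 or normal_409, 2 without normal_349 or normal_376, 8 without model_407 and 13 without model_329, and in the last 2 fits 6.62% and 11.4% of all genes were higher. The share of all genes called in either direction ran from 3.12% to 18% with 1 library left out. It is not given singly for the fits without a normal library, so their counts of members have no share beside them. Of the 8 fits that each left out 1 library, 3 called Dnajb9, 4 Atf5, 3 Psat1 and 6 Nupr1. Model_327 had the highest value of the 16 libraries for 25 of the 33 genes, as for 21.8% of all genes tested.

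Each of the chaperones was highest in a single model library. Hspa5 (chr2:34771970-34777547), the central ER chaperone, had 269, 229, 212 and 221 CPM in normal_346, normal_349, normal_376 and normal_409, and 2544, 173, 311 and 234 in model_327, model_329, model_387 and model_407. With PGZ it had 206, 268, 184 and 243 CPM in model_PGZ_328, model_PGZ_360, model_PGZ_404 and model_PGZ_408. With DLE it had 270.0, 189, 123 and 162 CPM in model_DLE_361, model_DLE_373, model_DLE_378 and model_DLE_401, and values below follow the same orders. Model_327 was thus 8.18-fold above the next highest library, and the other 3 model libraries lay below, within and above the normal range. The model versus normal log2 fold change of Hspa5 was 1.81 (SE 0.64, adjusted p = 0.0858), and it was 0.039 (SE 0.26, adjusted p = 0.951) without model_327.

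All 14 chaperone and folding genes were highest in model_327, each at least 2-fold above the next highest library, which held for 3.02% of all genes tested. The ratio to the next highest library ran from 2.24 for Calr to 12.9 for Creld2, a secreted disulfide isomerase-like protein. Creld2 had 21.6, 23.5, 32.7 and 13.1 CPM in normal, 433, 13.1, 33.5 and 15.9 in model, 20.3, 18.4, 11.3 and 14.7 with PGZ and 21.8, 13.4, 11.2 and 19.6 with DLE. Manf, a secreted factor released on ER calcium loss, had 640.2, 18.9, 80.3 and 31.6 CPM in model against 60.2, 37.3, 30.8 and 39.5 in normal. Hyou1, a large ER chaperone and nucleotide exchange factor for BiP, had 627, 37.1, 70.5 and 41.4 CPM in model against 83.2, 54.6, 35.3 and 53 in normal. In each of these genes model_327 was far above the rest, and model_329 and model_407 did not exceed the highest normal library. Log2 fold changes in model versus normal were 2.44 for Creld2 (adjusted p = 0.0813), 2.20 for Manf (adjusted p = 0.0895) and 1.78 for Hyou1 (adjusted p = 0.114). Without model_327 they were -0.13, 0.056 and -0.19 (adjusted p = 0.872, 0.955 and 0.757).

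Dnajb9, a J-domain co-chaperone of BiP that is also known to restrain IRE1, was the 1 chaperone to pass the test in model versus normal. It had 9.71, 11.3, 8.86 and 10.4 CPM in normal, 178, 10, 16.4 and 15.7 in model, 16.7, 29.9, 21.8 and 21.9 with PGZ and 16.6, 19.1, 8.45 and 11.3 with DLE. One model library was in the normal range and the other 3 were above it, and all PGZ libraries were above every normal library. On the log2 scale Dnajb9 changed by 2.45 (SE 0.71, adjusted p = 0.0429) in model versus normal and 0.48 (adjusted p = 0.314) without model_327, and 1.16 (adjusted p = 0.265) in PGZ versus normal. In a fit of only PGZ and normal the latter was 1.18, with an adjusted p of 0.00145. That fit also called a larger share of all genes than the main fit. A fit of only model and normal called no member higher, so Dnajb9 was not called there.

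Sdf2l1, a component of the ER chaperone complex with DnaJ proteins, differed widely among the db/db libraries. Its CPM was 29.9, 31.4, 9.25 and 17.7 in normal, 241, 4.89, 27.6 and 7.02 in model, 16.2, 9.24, 3.43 and 7.25 with PGZ and 7.43, 2.77, 1.53 and 1.77 with DLE. All 4 DLE libraries were below every normal library, whereas the model libraries spread from far below to far above the normal range. Its log2 fold change was 1.67 (SE 0.95, adjusted p = 0.26) in model versus normal and -0.74 (adjusted p = 0.58) without model_327. In DLE versus normal it was -2.71 (SE 1.01, adjusted p = 0.184), and -2.70 in a fit of only those groups (adjusted p = 0.0173).

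The remaining chaperones repeated the pattern at lower ratios. Calr, Canx, Hsp90b1 (the ER HSP90 protein), Dnajb11, Dnajc3, Pdia3, Pdia4 and Pdia6 were 3.03- to 6.94-fold above the normal mean in model_327 and 0.936- to 1.283-fold in model_387. In model_329 they were 0.472- to 1.02-fold of that mean. For 14 of 14 chaperones the log2 fold change in model versus normal was above 0, with a median of 1.21, and without model_327 it was above 0 for 5 of 14, with a median of -0.08 and 0 of 14 called or at an unadjusted p under 0.05, where 22.7% of all genes were.

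**Figure D2:**
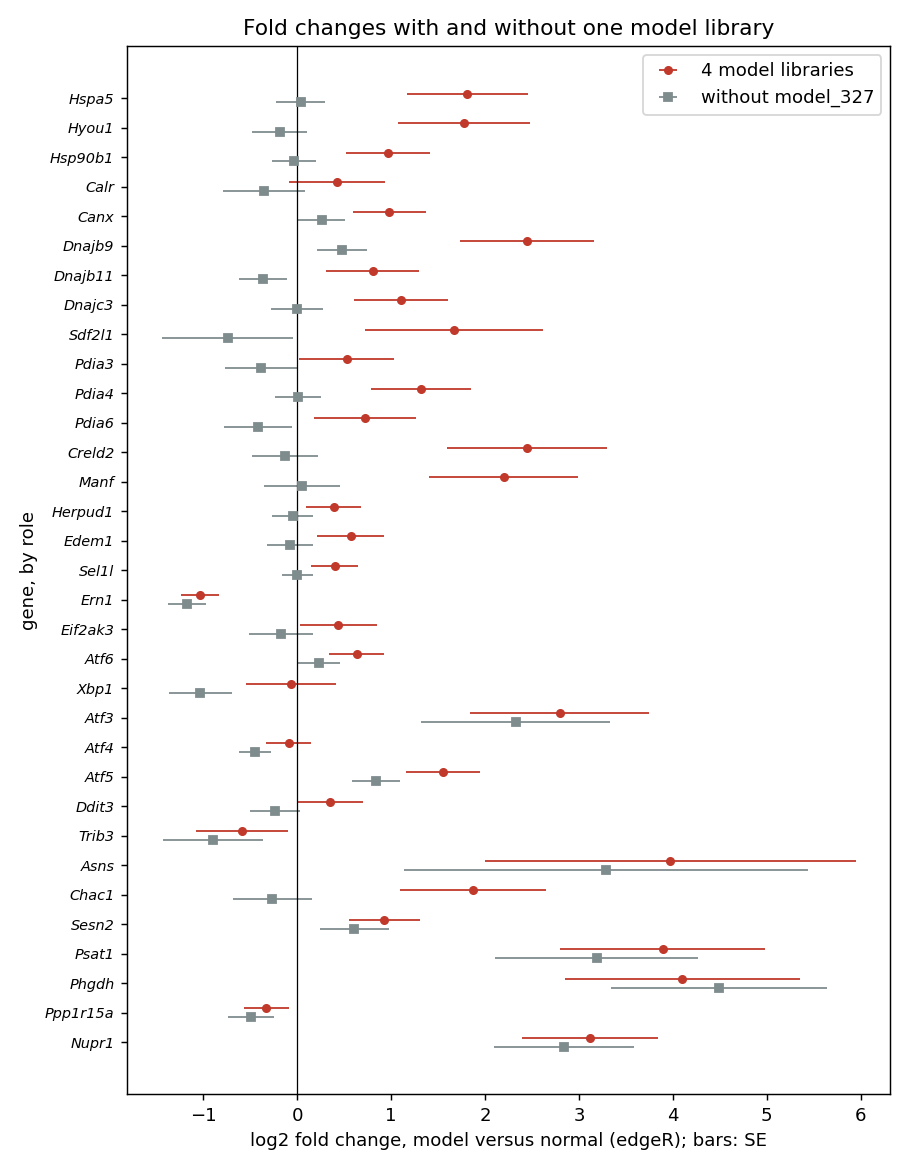
Log2 fold change in model versus normal for each of the 33 genes (rows), estimated with edgeR from 4 model libraries (red circles) and without model_327 (grey squares), and bars give the SE. The chaperones move from a median of 1.21 to -0.08, whereas Ern1, Atf3, Psat1, Phgdh and Nupr1 keep their sign and most of their size.

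The 3 genes of ER-associated degradation moved less. Herpud1, a membrane scaffold of the degradation complex and the gene with both ERSE-II and CARE in its window, had 219, 188, 284 and 239 CPM in normal, 543, 256, 159 and 260.4 in model, 212, 232, 229 and 201 with PGZ and 362.4, 279.7, 418.3 and 400.7 with DLE. Model_387 was below every normal library. All 4 DLE libraries were above every PGZ library, and 3 of them were above every normal library. Edem1, which extracts misfolded glycoproteins, and Sel1l, the adaptor of the ubiquitin ligase HRD1, had 309.7 and 283 CPM in model_327. Their other 15 libraries ran from 55.3 to 135 CPM and from 97.4 to 145 CPM. Edem1 was 0.57 and Sel1l 0.40 on the log2 scale in model versus normal, next to 0.39 for Herpud1, and without model_327 the values were -0.076, 0.0028 and -0.049. None of the 3 passed the test in model versus normal with edgeR, 0 of them were at an unadjusted p under 0.05, and none was past it with DESeq2 or voom.

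Ern1 (chr11:106394650-106487852), the gene of the sensor IRE1, was lower in all 3 db/db groups. It had 59.1, 56.2, 73.8 and 70.1 CPM in normal, 40, 30, 29.9 and 26.5 in model, 25.7, 30.5, 21.4 and 36.6 with PGZ and 23.4, 34.7, 35.8 and 34.4 with DLE. Every one of the 12 db/db libraries was below every normal library, model_327 included, and the 3 db/db groups overlapped one another. Ern1 was 2.05-fold lower in model (log2 -1.04, SE 0.20, adjusted p = 0.00635), 2.27-fold lower with PGZ (log2 -1.18, SE 0.20, adjusted p = 0.00162) and 2.02-fold lower with DLE (log2 -1.01, SE 0.20, adjusted p = 0.00801). These comparisons share the normal libraries. Ern1 was called in each of them with every library left out in turn and under every alternative run. Without model_327 its log2 fold change in model was -1.17 (adjusted p = 0.00358).

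Xbp1, whose spliced form drives chaperone and secretory genes, was below the normal range in 11 of the 12 db/db libraries. Gene counts do not separate spliced from unspliced Xbp1. It had 347, 332, 242 and 245 CPM in normal, 683, 93.1, 232 and 104 in model, 184, 130.1, 100.4 and 132 with PGZ and 195, 106, 105 and 116 with DLE. All PGZ and DLE libraries and 3 of the 4 model libraries were below that range, and model_327 was above it. The highest Xbp1 of each db/db group was in the library with the most Saa1, at 27783 CPM in model_327, 4567 in model_PGZ_328 and 1974 in model_DLE_361. This pairing was chosen after the values were seen, and its part in the result was not tested. The log2 fold change was -0.069 (SE 0.48, adjusted p = 0.94) in model versus normal and -1.03 (SE 0.33, adjusted p = 0.0714) without model_327. Without model_327 and model_387 it was -1.56 (adjusted p = 0.0119), which passed the test. With PGZ it was -1.09 (adjusted p = 0.14) and with DLE -1.16 (adjusted p = 0.244) against normal, whereas fits of only the groups compared gave adjusted p-values of 0.00549 and 0.0298.

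Atf6, the ER-bound transcription factor that is cleaved on stress, had 29.1, 27.4, 19.1 and 27.8 CPM in normal, 69.3, 29.3, 30.7 and 31 in model, 27.7, 38.6, 33.1 and 32.1 with PGZ and 40.6, 24.3, 17.6 and 25.6 with DLE. Every model library was above every normal library, 3 of them by little. Atf6 had a log2 difference of 0.63 (adjusted p = 0.164), and 0.23 (adjusted p = 0.603) without model_327. Eif2ak3, the gene of PERK, had 29.8 CPM in model_327 and between 6.67 and 21.2 CPM elsewhere, with a log2 fold change of 0.44 (adjusted p = 0.507), and -0.17 (adjusted p = 0.822) without model_327.

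**Figure D3:**
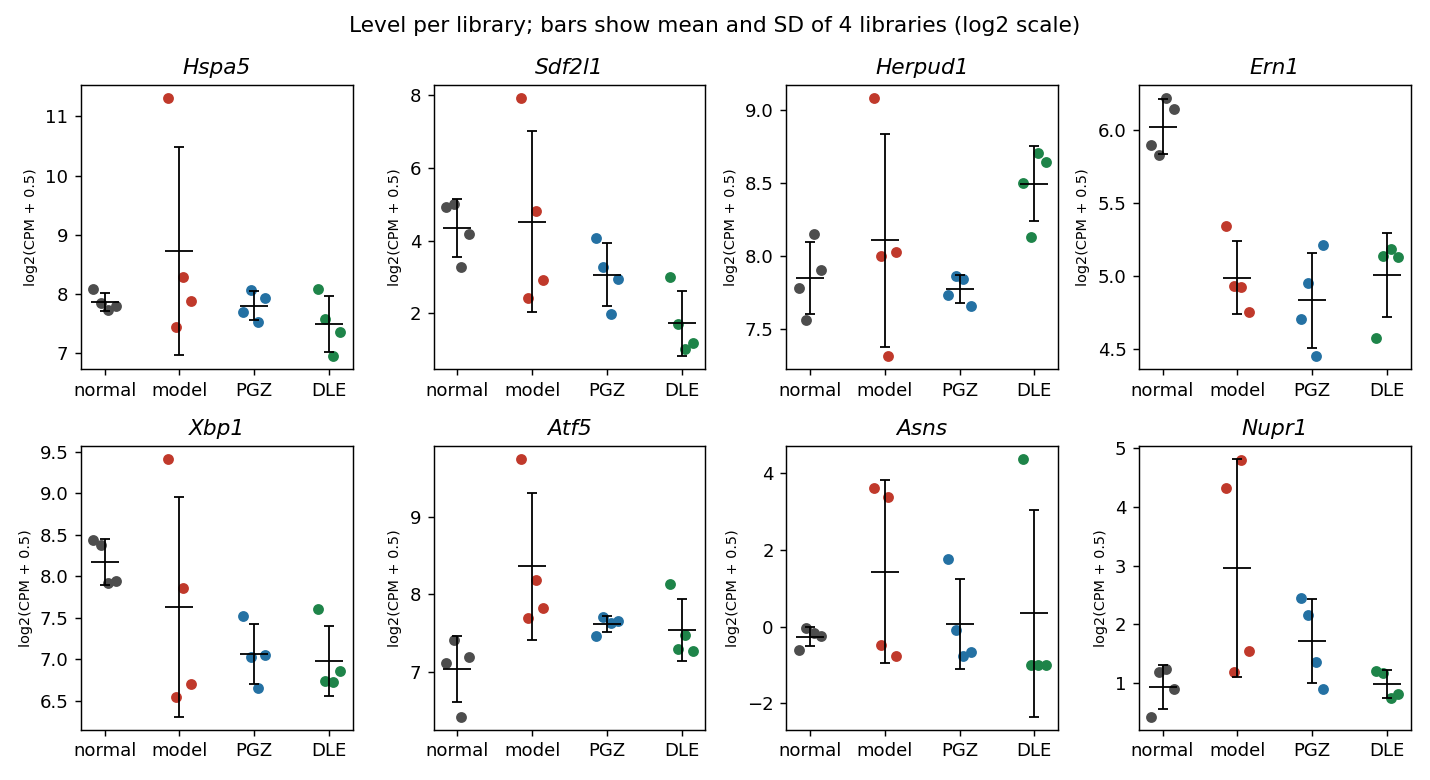
Level of 8 genes in each library on a log2(CPM + 0.5) axis, by group. Each point is a library, and the bar and whiskers are the mean and SD of 4 libraries on that scale. Hspa5 is set by model_327 in the model group and Ern1 is lower in all db/db groups. Asns is high in model_327, model_387, model_PGZ_328 and model_DLE_361.

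Among the transcription factors of the ATF4 arm, Atf5 was higher in model liver and Atf4 itself was not. Atf5 (chr7:44812256-44816658) is under the same upstream open reading frame control as Atf4. It had 138, 169.7, 85.2 and 145 CPM in normal, 859, 207, 291 and 226 in model, 176, 209, 198 and 200.5 with PGZ and 279.5, 157, 177 and 154 with DLE. All 4 model and all 4 PGZ libraries were above every normal library, and the DLE libraries overlapped the normal range. In model versus normal Atf5 rose 2.94-fold (log2 1.56, SE 0.39, adjusted p = 0.0238), and without model_327 the log2 fold change was 0.84 (SE 0.25, adjusted p = 0.0548).

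Atf4 had 121, 132, 148 and 136 CPM in normal, 210.2, 90.7, 115 and 89.6 in model, 95.1, 108, 99.1 and 102 with PGZ and 137, 99.7, 109.6 and 95.8 with DLE. Model_327 was above the normal range and the other 3 model libraries were below it, as were all PGZ libraries. Atf4 differed by -0.090 on the log2 scale (SE 0.24, adjusted p = 0.835) in model versus normal, and -0.45 (SE 0.17, adjusted p = 0.121) without model_327. Ddit3, the gene of the pro-apoptotic factor CHOP, had 57.9 CPM in model_327 and 13.6 to 38.2 CPM elsewhere, with its second highest value in a normal library. Its log2 fold change was 0.35 (adjusted p = 0.539), and -0.23 (adjusted p = 0.65) without model_327.

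Atf3, a stress-induced repressor and immediate early gene, had 0.792, 0.807, 1.42 and 1.58 CPM in normal, 14.6, 1.08, 13.5 and 2.64 in model, 1.97, 19.6, 4.31 and 4.15 with PGZ and 0.977, 7.77, 0.509 and 3.03 with DLE. High values stood in 4 libraries of different db/db groups, model_327, model_387, model_PGZ_360 and model_DLE_373, and only the PGZ group was wholly above the normal one. The log2 fold change was 2.79 (SE 0.95, adjusted p = 0.0758) in model and 2.71 (SE 0.95, adjusted p = 0.0723) with PGZ, each against normal. Without model_327 it was 2.33 in model (adjusted p = 0.185).

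The ATF4 targets divided into genes that were high in 2 model libraries and genes that were not. Nupr1 (chr7:126623249-126630861), a small stress-induced chromatin protein, had 0.845, 1.77, 1.86 and 1.37 CPM in normal, 19.5, 1.77, 27.3 and 2.42 in model, 4.95, 3.99, 2.07 and 1.37 with PGZ and 1.81, 1.74, 1.17 and 1.26 with DLE. Its highest level was in model_387, where Hspa5 was 1.34-fold of the normal mean and Nupr1 18.7-fold, and model_329 was within the normal range. Nupr1 rose in model liver by 3.12 on the log2 scale (SE 0.72, adjusted p = 0.0166), and by 2.84 (SE 0.75, adjusted p = 0.0325) without model_327. Without both model_327 and model_387 no member was called higher, against 1.73% of all genes.

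Psat1 and Phgdh act in serine synthesis and were covered by few reads. Psat1 had 4, 1, 12 and 1 reads in normal, 161, 1, 146 and 12 in model, 18, 20, 20 and 12 with PGZ, and 17, 9, 3 and 31 with DLE. Model_327 and model_387 were high, and model_329 was at the normal minimum. Psat1 rose in model by 3.89 on the log2 scale (SE 1.09, adjusted p = 0.0365), which was 3.19 (adjusted p = 0.0868) without model_327.

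Phgdh, the first enzyme of the same pathway, had 0, 4, 1 and 2 reads in normal, 2, 4, 154 and 9 in model, 15, 11, 12 and 2 with PGZ, and 1, 0, 2 and 2 with DLE. A single library, model_387, was high, and model_327 was not. In model versus normal Phgdh differed by 4.10 on the log2 scale (SE 1.25, adjusted p = 0.0503), and 4.49 (adjusted p = 0.0284) without model_327. When model_387 was left out, Phgdh no longer passed the filter on low counts.

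Asns (chr6:7675169-7693254), asparagine synthetase and the textbook target of amino acid deprivation, varied most of all members between libraries of a group. It had 3, 9, 8 and 5 reads in normal, 241, 4, 240 and 2 in model, 60, 11, 2 and 3 with PGZ, and 418, 0, 0 and 0 with DLE. Model_DLE_361 was highest, at 20.4 CPM, followed by model_327 and model_387 at 11.7 and 9.94 CPM and model_PGZ_328 at 2.89 CPM. These 4 libraries also had the largest acute-phase sums of all 16, at 74580, 259200, 122200 and 61880 CPM, and the other 12 lay between 11950 and 24780 CPM. That pairing was chosen after the values were seen, and its part in the result was not tested. The log2 fold change of Asns was 3.97 (SE 1.97, adjusted p = 0.2) in model and 3.87 (SE 1.97, adjusted p = 0.365) with DLE, each against normal, and the latter rested on model_DLE_361. Without model_327 the former was 3.29 (adjusted p = 0.4).

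Chac1, which degrades glutathione, had 4.8, 3.77, 2.69 and 3.63 CPM in normal, 45.2, 1.4, 4.27 and 3.61 in model, 6.45, 5.08, 4.23 and 2.19 with PGZ and 4.54, 2.59, 2.75 and 2.27 with DLE. Unlike Nupr1 and Psat1 it was high in model_327 and within the normal range in model_387, with a log2 fold change of 1.87 (adjusted p = 0.13), and -0.26 (adjusted p = 0.766) without model_327. Sesn2, a stress-induced inhibitor of mTORC1 signalling, had 6.39, 7.48, 8.71 and 11.4 CPM in normal, 25.7, 10.4, 11.9 and 16.4 in model, 9, 11.2, 11.3 and 10.5 with PGZ and 8.84, 10.6, 15.5 and 35 with DLE. Its highest value was in model_DLE_401, and its log2 fold change was 0.93 (adjusted p = 0.123) in model and 1.04 (adjusted p = 0.167) with DLE, each against normal. The latter was 0.44 with model_DLE_401 left out.

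Of the feedback regulators, Trib3, a pseudokinase that binds ATF4, had 17.1, 13.4, 30.3 and 31.7 CPM in normal, 24.1, 21, 3.93 and 12.4 in model, 6.4, 11.2, 14.7 and 16.1 with PGZ and 6.16, 20.1, 20.9 and 11.6 with DLE. Its 3 lowest values were in model_387, model_DLE_361 and model_PGZ_328, 3 libraries in which Asns was high, whereas in model_327, where Asns was also high, Trib3 was the highest of the 12 db/db libraries. This comparison was chosen after the values were seen. Ppp1r15a, the gene of the eIF2 phosphatase subunit GADD34, had 17, 21.5, 31.8 and 22.2 CPM in normal and 24.4, 12.2, 21.2 and 15.9 in model. Neither passed the test in model versus normal, with log2 fold changes of -0.59 (adjusted p = 0.448) and -0.33 (adjusted p = 0.394).

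Set against each other by library, the mean of the chaperones and that of the ATF4 targets separated in model_387. The mean difference from normal over 14 chaperones on the log2(CPM + 0.5) scale was 2.91 in model_327, 0.38 in model_387, -0.62 in model_329 and -0.22 in model_407. The same mean over 8 ATF4 targets was 2.01, 1.57, -0.22 and 0.11 in those libraries. Thus both means were high in model_327, that of the ATF4 targets was the higher in model_387, and neither was high in model_329 or model_407. The mean in model_387 came from 4 of the 8 targets, Nupr1, Psat1, Phgdh and Asns, which were 18.7- to 63.6-fold of their normal means, on few reads in normal for the last 3. The other 4 were 0.17-fold (Trib3), 0.918-fold (Ppp1r15a), 1.15-fold (Chac1) and 1.405-fold (Sesn2) there. In model_327 Phgdh, Trib3 and Ppp1r15a were 0.97- to 1.055-fold of theirs. Over the remaining libraries the chaperone mean ran from -0.51 to 0.34 in normal, between -0.56 and -0.03 with PGZ, and between -1.16 and -0.03 with DLE. The ATF4 target mean ran from -0.23 to 0.19 in normal, between -0.15 and 0.46 with PGZ, and between -0.15 and 0.44 with DLE. No test was made of these means, since the members were chosen with results of these data known.

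**Figure D4:**
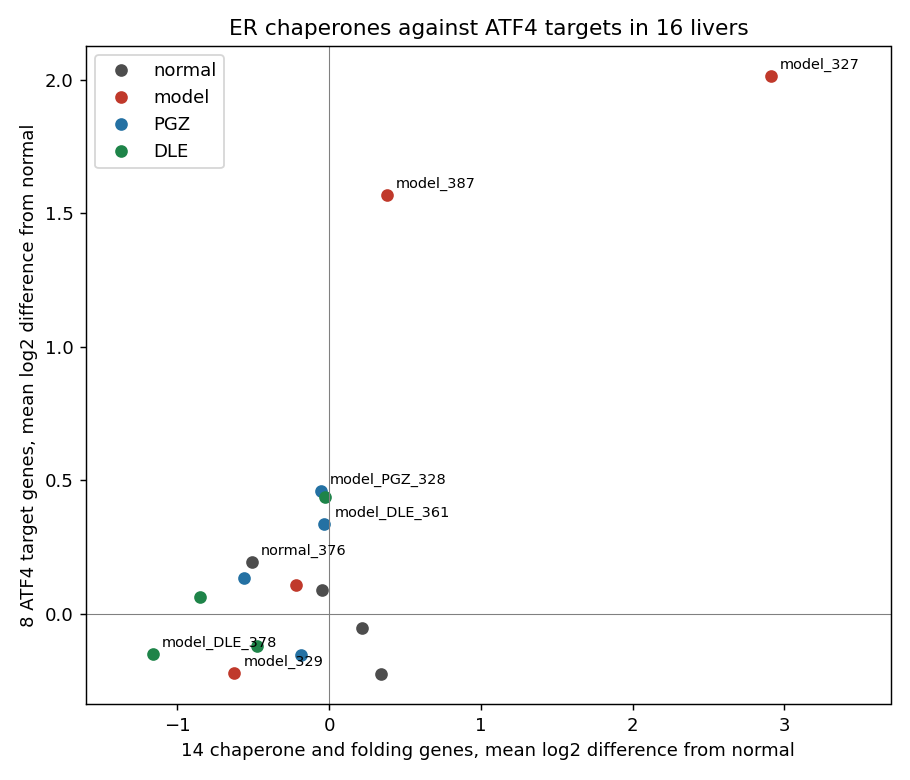
Each point is a library, with the mean log2 difference from normal over 14 chaperone and folding genes on the horizontal axis and over 8 ATF4 target genes on the vertical axis, coloured by group. Model_327 lies at 2.91 and 2.01 and model_387 at 0.38 and 1.57, and the other 14 libraries lie between -1.16 and 0.34 on the horizontal axis and between -0.23 and 0.46 on the vertical axis.

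PGZ and DLE were each set against model liver to ask whether either drug or extract moved the module. In PGZ versus model, 0 of the 33 genes passed edgeR's quasi-likelihood test, against 0.0127% of all genes. At an unadjusted p under 0.05 stood 16 of them, against 9.78% of all genes. With DESeq2 or voom 0 were called, where each called a larger share of all genes than edgeR, as given in the last section. DESeq2 gave an adjusted p for 8 of 12 members followed there, and a gene without one counts as not called. In DLE versus model 0 of the 33 passed, against 0% of all genes, 21 were at an unadjusted p under 0.05, against 14.3%, voom called 0 and DESeq2 called 5 lower, against 1.92% of all genes. Both comparisons use the same 4 model libraries, model_327 among them. With all model libraries the log2 fold change of Hspa5 was -1.86 with PGZ (SE 0.65, adjusted p = 0.409) and -2.13 with DLE (SE 0.65, adjusted p = 0.217). Without model_327 it was -0.088 (SE 0.26) and -0.36 (SE 0.26). The median over the 33 genes was -1.04 with PGZ and -1.26 with DLE, and -0.16 and -0.29 when model_327 was left out, against medians over all genes of -0.09 and -0.04 with PGZ and -0.02 and 0.02 with DLE. Then 3 and 4 of the 33 were at an unadjusted p under 0.05, a share close to the 10.8% and 10.3% of all genes that were. With model_329 left out in place of model_327, 11 of the 33 were called lower in DLE versus model, against 2.61% of all genes.

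Of the genes at an unadjusted p under 0.05 without model_327, Nupr1 had log2 fold changes of -1.76 with PGZ (adjusted p = 0.429) and -2.81 with DLE (adjusted p = 0.209). Phgdh had -2.37 and -5.19 (adjusted p = 0.431 and 0.209), and both genes were highest in model_387. Dnajb9 was higher with PGZ than in the 3 remaining model libraries without overlap, as were 5.88% of all genes (log2 0.69, adjusted p = 0.421), where its sign with all 4 was the opposite (log2 -1.28). Sdf2l1 had -1.97 with DLE (adjusted p = 0.298). Herpud1, which was at 0.26 with all model libraries (unadjusted p = 0.382), was higher with DLE than in the 3 model libraries without overlap, as were 2.52% of all genes (log2 0.70, adjusted p = 0.238). None of these passed the adjusted threshold, where 0.00625% and 0% of all genes were called with PGZ and DLE.

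DLE was compared with PGZ directly, a comparison that does not use the model libraries other than in the estimate of spread. With edgeR 0 of the 33 passed, against 0.00635% of all genes, and 2 were at an unadjusted p under 0.05, fewer than the share of 9.63% over all genes, with 0 called by DESeq2 and 1, Herpud1, by voom, which called 2.32% of all genes higher. Herpud1 was higher in every DLE library than in every PGZ library, where 4.24% of all genes were, and differed by 0.74 on the log2 scale (SE 0.29, adjusted p = 0.485). The voom estimate was 0.75 (adjusted p = 0.0367). Phgdh was the other gene, at -2.82 on the log2 scale (SE 1.298, adjusted p = 0.511) on 15, 11, 12 and 2 reads with PGZ and 1, 0, 2 and 2 with DLE.

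Both treated groups were also set against normal liver, which differs from them in genotype as well as treatment and leaves the model libraries out of the fold change. The model libraries, model_327 among them, still entered the shared estimate of spread. In fits of only the groups compared more members were called in both comparisons, as were more of all genes with PGZ. Those counts are given in the last section. In PGZ versus normal 1 of the 33, Ern1, was lower and 0 were higher, against 6.08% and 6.15% of all genes, with 4 at an unadjusted p under 0.05, against 30.2%. DESeq2 and voom called 1 and 4 higher, against 9.76% and 20.3% of all genes, and voom called 11 lower, against 19.9%. No overlap between groups was seen for 4 higher genes, Canx, Dnajb9, Atf3 and Atf5, where 16.5% of all genes were, and for 5 lower genes, Dnajb11, Edem1, Ern1, Xbp1 and Atf4, where 15.7% were. In DLE versus normal Ern1 was lower and 0 were higher, against 1.7% and 1.84% of all genes, with 6 at an unadjusted p under 0.05, against 15.8%. DESeq2 called 0 higher and voom 2, the latter against 4.92% of all genes, and voom called 8 lower, against 4.68%. Sdf2l1, Ern1 and Xbp1 were lower without overlap, where 6.22% of all genes were. The median log2 fold change of the 14 chaperones was -0.30 with PGZ and -0.49 with DLE, and that of the 8 ATF4 targets was 0.69 and -0.13.

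Further genes of these pathways, taken from 9 lists, were followed in the same fits. Of 18 other ATF4 targets tested, 7 were higher and 0 lower in model versus normal, beside 6.18% and 2.9% of all genes, and 5 were higher without model_327, beside 5.24%. Among the 7 were Ddit4, an mTORC1 inhibitor, at 1.43, 1.72, 2.64 and 4.25 CPM in normal and 39.3, 4.03, 13.3 and 14.4 in model (log2 2.83, adjusted p = 0.00614), and Vldlr, a lipoprotein receptor, at 0.106, 0.43, 0.489 and 0.549 and 2.77, 29.4, 0.497 and 12.8 CPM (log2 4.84, adjusted p = 0.0121). Ddit4 and Vldlr were called with every library left out in turn. Within the model group Vldlr was highest in model_329 and lowest in model_387, where it was within the normal range. Fgf21, a hepatic stress hormone, was 0.106, 0.484, 0.881 and 0.754 CPM in normal, 35.9, 0.968, 2.78 and 2.17 in model, 2.07, 12.7, 10 and 6.89 with PGZ and 5.52, 4.78, 6.72 and 10.4 with DLE (log2 4.22 in model versus normal, adjusted p = 0.0226), above every normal library in all 12 db/db libraries. Model_327 set the value in model, which was 1.83 (adjusted p = 0.0846) without it. Fgf21 was called in 3 of the 8 fits that left out 1 library, and not without any 1 normal library. The mean log2 difference over these 18 genes was 0.57 to 1.72 in model, 0.59 to 1.26 with PGZ and 0.60 to 0.86 with DLE, against -0.06 to 0.11 in normal, and so did not overlap the normal range in any db/db group. The median log2 fold change against normal was 1.17 in model, 0.56 with PGZ and 0.26 with DLE, beside 0.07, 0.03 and 0.04 over all genes. Above 0 were 17, 15 and 12 of the 18. Genes with large fold changes such as Vldlr raise the means, which were not tested. Whether ATF4 set the level of any of these genes was not tested.

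The mitochondrial folate enzyme Mthfd1l was higher in PGZ versus normal (log2 4.17, adjusted p = 0.00416) and in DLE versus normal (log2 3.21, adjusted p = 0.0317), as was Vldlr, which was called in every fit that left out 1 library (log2 5.46 and 5.63, adjusted p = 0.00436 and 0.00649). Over the 18, 4 were higher and 1 lower with PGZ against normal, beside 6.15% and 6.08% of all genes. With DLE against normal 2 were higher and 0 lower, beside 1.84% and 1.7%. Mthfd1l in DLE versus normal was called in 4 of 8 such fits, and without normal_346, normal_349, normal_409 or model_DLE_401 its adjusted p was up to 0.119, at log2 fold changes of 2.56 to 5.14 over the 8. These comparisons share the normal libraries. In PGZ versus model and DLE versus model 0 of the 18 were called, with 3 and 4 at an unadjusted p under 0.05, beside 9.78% and 14.3% of all genes. In PGZ versus normal 1 of 11 other sensors and ER membrane factors and 1 of 13 eIF2 kinases and regulators were lower. Creb3l3 of the former list (log2 -0.80) was called in 3 of the 8 fits that left out 1 library. Gcn1l1 of the latter list (log2 -0.85) was called in 5 of the 8.

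Of 19 genes of ER import and glycosylation, 2 were higher in model versus normal, the signal peptidase subunit Spcs1 (log2 1.801, adjusted p = 0.0268) and the oligosaccharyltransferase subunit Ostc (log2 1.89, adjusted p = 0.0427), beside 6.18% of all genes. Without model_327 they were at 1.09 and 0.71 (adjusted p = 0.0809 and 0.187), and 0 of the 19 were higher, beside 5.24% of all genes. Spcs1 was called in 4 and Ostc in 3 of the 8 fits that left out 1 library. Of 17 further ER-associated degradation genes 1 was higher, Selenos (log2 1.43, adjusted p = 0.0474), a share close to that of all genes. Without model_327 Selenos was at 0.62 (adjusted p = 0.196), and 0 of the 17 were higher and 2 lower, beside 5.24% and 2.05% of all genes. It was called in 3 of the 8 fits, and not without any 1 normal library. Of 22 further ER folding genes, 11 other sensors and ER membrane factors and 13 eIF2 kinases and regulators, 0 were called. At an unadjusted p under 0.05 stood 5, 4 and 4 of them, beside 28% of all genes. Of 12 aminoacyl-tRNA synthetases and 7 mitochondrial chaperones and proteases 0 were called, with 4 and 0 at an unadjusted p under 0.05. In the fit without model_327, 1 of the 22 ER folding genes was lower, beside 2.05% of all genes. Of 10 cytosolic heat shock genes 0 were called with all model libraries, and 4 were at an unadjusted p under 0.05. Their mean log2 difference from normal was 2.74 in model_327 against -0.91 to 0.49 in the other 15 libraries. Model_327 therefore stood apart in cytosolic as well as ER chaperones. The mitochondrial chaperones and proteases had a mean difference of 0.77 there, against -0.47 to 0.39 elsewhere.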

How the data were processed

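Whole-number read counts per gene, not normalized, were deposited for liver RNA. Per the submitters' processing notes, DESeq2 1.28.0, StringTie 1.3.3b, HISAT2 2.1.0, FastQC 0.11.5, CASAVA 1.8.2 and the build GRCm38 were used, with no role or order named. Counting, strand and multi-mapped reads are not given in the sources used here. Reads of overlapping genes and near-identical copies therefore cannot be told apart. Labels describe 20 libraries, and 4 columns held no value, so that group was not analysed here. Groups came from the labels. Members and lists were chosen with earlier results of these data known, and all 33 members are named. Of the genes of other lists called in model versus normal, up to 3 per list were named, those with the smallest p. In other comparisons fewer were named, and further called genes are only counted.

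In R 4.3.3, edgeR 4.0.16 fitted a robust quasi-likelihood model to all 4 groups after filterByExpr and TMM scaling. Tests were two-sided and adjusted by Benjamini-Hochberg over the whole table of tested genes. The threshold for a call was an adjusted p under 0.05. Every adjusted p is from this test unless DESeq2 1.42.0 or limma 3.58.1 (voom with quality weights) is named. DESeq2 gave no adjusted p for some genes in these comparisons, and those count as not called. Lists were described by counts and medians, without a test. The procedure was tested on simulated data without an outlying library, which does not bear on results set by model_327 or model_387. Coordinates are from GENCODE M21 (GRCm38) and promoter windows from RefSeq (GRCm38.p6). Other scalings, filters, fits, tools and left-out libraries were tried as alternatives. A count of 0 over a group allows up to 3 reads, or 0.0333 to 0.0413 CPM, for counting error only.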

Additional observations from a re-analysis of the deposited data

Results flagged for a closer look

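For each of the 33 genes and each group of 4 libraries, 132 groups in all, the gap between an extreme library and its nearest neighbour was set against the range of the group. In 27 of them the gap passed Dixon's 95% critical value for 4 libraries, and for normally distributed values chance flags about 1 in 20 groups. The values were CPM without a log scale, and 17 of the flags fell in model_327. That rate therefore need not hold here. What sets these libraries apart was not tested. In model_327, 17 genes stood apart from the other 3 libraries of the group, Hspa5 at 2544 CPM against 173 to 311, Hyou1 at 627 CPM against 37.1 to 70.5, Hsp90b1 at 1343 CPM against 244 to 309 and Canx at 379 CPM against 90.1 to 119. The same library had Dnajb9 at 178 CPM against 10 to 16.4, Dnajb11 at 291 CPM against 35.3 to 67.1, Dnajc3 at 420.4 CPM against 62 to 82.1 and Sdf2l1 at 241 CPM against 4.89 to 27.6. It also had Pdia4 at 757 CPM against 87 to 139.9, Pdia6 at 670.2 CPM against 72.5 to 144, Creld2 at 433 CPM against 13.1 to 33.5 and Manf at 640.2 CPM against 18.9 to 80.3. There were further Eif2ak3 at 29.8 CPM against 8.55 to 10.6, Atf6 at 69.3 CPM against 29.3 to 31, Atf5 at 859 CPM against 207 to 291 and Ddit3 at 57.9 CPM against 17.1 to 22.2. The last of the 17 was Chac1 at 45.2 CPM against 1.4 to 4.27. In model_PGZ_360, 2 genes stood apart from the other 3 libraries of the group, Canx at 139 CPM against 105 to 110.2 and Atf3 at 19.6 CPM against 1.97 to 4.31. In model_PGZ_404, 1 gene stood apart from the other 3 libraries of the group, Pdia3 at 192 CPM against 257 to 267. In model_PGZ_328, 2 genes stood apart from the other 3 libraries of the group, Edem1 at 90.7 CPM against 65.3 to 65.7 and Asns at 2.89 CPM against 0.088 to 0.444. In model_DLE_361, 3 genes stood apart from the other 3 libraries of the group, Ern1 at 23.4 CPM against 34.4 to 35.8, Xbp1 at 195 CPM against 105 to 116 and Asns at 20.4 CPM against 0 in each of the others. In normal_376, 1 gene stood apart from the other 3 libraries of the group, Atf6 at 19.1 CPM against 27.4 to 29.1. In model_387, 1 gene stood apart from the other 3 libraries of the group, Phgdh at 6.38 CPM against 0.0973 to 0.383.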

How the results depend on the processing

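Scaling by RLE or upper quartile and the stricter filter kept the percentages of genes called and the counts of members called within 1.5 times of those reported in all 6 comparisons, and voom gave model_327 the lowest sample weight, 0.139. In model versus normal, the percentage of all genes tested that were called, 9.08%, was 3.69% without a filter, 1.56% in a fit of only the groups compared, 15.5% with DESeq2, 27.5% with voom, 2.68% without model_327 and model_387 and 3.12% to 18% with each library left out in turn. In model versus normal, the number of members called higher, 4, was 0 in a fit of only the groups compared, 2 with voom, 0 without model_327 and model_387 and 0 to 13 with each library left out in turn. In model versus normal, the number of members called lower, 1, was 5 with voom and 2 without model_327 and model_387. In PGZ versus model, the percentage of all genes tested that were called, 0.0127%, was 0.00776% without a filter, 0.00662% in a fit of only the groups compared, 0.807% with DESeq2, 10.4% with voom, 0.0244% without model_327 and model_387 and 0.00618% to 0.0312% with each library left out in turn. In DLE versus model, the percentage of all genes tested that were called, 0%, was 2.4% with DESeq2, 0.0762% with voom, 0.00611% without model_327 and model_387 and 0% to 3.16% with each library left out in turn. In DLE versus model, the number of members called lower, 0, was 5 with DESeq2 and 0 to 11 with each library left out in turn. In DLE versus PGZ, the percentage of all genes tested that were called, 0.00635%, was 0.00388% without a filter, 0.0799% in a fit of only the groups compared, 0.407% with DESeq2, 4.21% with voom and 0% to 0.0687% with each library left out in turn. In DLE versus PGZ, the number of members called higher, 0, was 1 with voom. In PGZ versus normal, the percentage of all genes tested that were called, 12.2%, was 5.53% without a filter, 29.6% in a fit of only the groups compared, 19.1% with DESeq2, 40.2% with voom and 5.33% to 11.7% with each library left out in turn. In PGZ versus normal, the number of members called higher, 0, was 2 in a fit of only the groups compared, 1 with DESeq2 and 4 with voom. In PGZ versus normal, the number of members called lower, 1, was 7 in a fit of only the groups compared and 11 with voom. In DLE versus normal, the percentage of all genes tested that were called, 3.54%, was 1.66% without a filter, 6.8% with DESeq2, 9.6% with voom and 2.04% to 3.25% with each library left out in turn. In DLE versus normal, the number of members called higher, 0, was 2 with voom. In DLE versus normal, the number of members called lower, 1, was 3 in a fit of only the groups compared and 8 with voom. With voom the log2 fold change in model versus normal took the opposite sign for Hyou1, Hsp90b1, Calr, Dnajb11, Dnajc3, Sdf2l1, Pdia3, Pdia4, Pdia6, Creld2, Manf, Edem1, Asns and Chac1, at -0.47, -0.18, -0.74, -0.52, -0.071, -1.71, -0.68, -0.091, -0.48, -0.23, -0.41, -0.33, -1.06 and -0.20 respectively. With voom the log2 fold change in PGZ versus model took the opposite sign for Dnajb9, Manf, Ern1, Xbp1 and Psat1, at 0.52, 0.12, 0.068, 0.17 and 0.52 respectively. With voom the log2 fold change in DLE versus model took the opposite sign for Xbp1, at 0.057. With voom the log2 fold change in DLE versus normal took the opposite sign for Asns, at -2.82. Without model_327 and model_387 the log2 fold change in model versus normal took the opposite sign for Hspa5, Hyou1, Hsp90b1, Calr, Dnajb11, Dnajc3, Sdf2l1, Pdia3, Pdia4, Pdia6, Creld2, Manf, Edem1, Eif2ak3, Ddit3, Asns and Chac1, at -0.19, -0.53, -0.14, -0.75, -0.66, -0.080, -1.88, -0.74, -0.19, -0.61, -0.65, -0.73, -0.42, -0.25, -0.15, -1.21 and -0.56 respectively. Without model_327 and model_387 the log2 fold change in PGZ versus model took the opposite sign for Hspa5, Creld2, Sdf2l1, Dnajb9, Manf, Ern1, Xbp1, Nupr1 and Psat1, at 0.15, 0.16, 0.59, 0.81, 0.54, 0.017, 0.47, 0.56 and 1.40 respectively. Without model_327 and model_387 the log2 fold change in DLE versus model took the opposite sign for Hyou1, Creld2, Dnajb9, Manf, Xbp1 and Psat1, at 0.0038, 0.18, 0.10, 0.030, 0.40 and 1.20 respectively. With 1 library left out in turn the sign changed for some genes, and their ranges follow. In model versus normal they were -0.19 to 2.12 for Hyou1, -0.031 to 1.21 for Hsp90b1, -0.35 to 0.69 for Calr, -0.36 to 1.09 for Dnajb11, -0.0061 to 1.37 for Dnajc3, -0.74 to 2.06 for Sdf2l1, -0.39 to 0.81 for Pdia3, -0.42 to 1.03 for Pdia6, -0.13 to 2.82 for Creld2, -0.049 to 0.60 for Herpud1, -0.076 to 0.80 for Edem1, -0.17 to 0.76 for Eif2ak3, -1.03 to 0.22 for Xbp1, -0.45 to 0.046 for Atf4, -0.23 to 0.73 for Ddit3 and -0.26 to 2.24 for Chac1. In PGZ versus model they were -1.63 to 0.69 for Dnajb9. In DLE versus model they were -0.057 to 0.16 for Ern1. In DLE versus normal they were -5.88 to 4.30 for Asns. The fitted value of Asns in DLE versus normal without model_DLE_361 compares libraries at 0 reads and is no bound on a fold. The cause of these changes was not tested, except that fewer libraries were used where libraries were left out. Ern1 kept its direction and its call against normal in all 3 comparisons under every alternative. No paired analysis was possible because the groups share no replicate number. Depth limits Phgdh, Psat1 and Asns, whose normal libraries hold 0 to 12 reads each, and a lone library sets several values above.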
